A study of Mus musculus with 6 samples.

Results

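Habenula-type cholinergic genes are here a set of 10 nicotinic subunit, cholinergic and habenula-enriched genes. They were chosen by name from a table in which their difference between double-knockout and wild-type hippocampus was already known. They are the nicotinic acetylcholine receptor subunits Chrna3, Chrna5, Chrnb3 and Chrnb4, the orphan receptor gene Gpr151, the transporter genes Slc10a4, Slc17a6 and Slc5a7, Nwd2, and Chat. All 10 were matched by symbol to 1 identifier each among the 48795 in the table. Their contrast values are therefore given as a description, with no p-value and no claim from how many passed. Polyadenylated RNA came from dissected hippocampus, with 3 libraries of genotype WT and 3 of genotype ifKO, and both groups had received tamoxifen (TMX). The ifKO mice carried floxed Kdm1a and Kdm5c alleles and CamKIIα-CreERT2, which acts in forebrain principal neurons once tamoxifen is given, on a C57BL/6J background, with tamoxifen at 2 to 3 months of age. KDM1A and KDM5C are demethylases of lysine 4 of histone H3. The labels do not say which of these alleles the WT mice carried, nor whether each library is a different mouse. The p-values here therefore cover the spread among these 6 samples, which may be technical. There was no group with just 1 enzyme deleted, and what either loss contributes cannot be told apart, and cells without the recombinase contribute to every library.

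The medial habenula is a small nucleus above the thalamus, close to the hippocampus and to the choroid plexus, whose neurons release acetylcholine and glutamate onto the interpeduncular nucleus. It is known for very high levels of nicotinic receptors built from the subunits α3, β4 and α5, whose genes lie side by side in 1 cluster. Acetylcholine is made by choline acetyltransferase (Chat) from choline taken up by Slc5a7 and is loaded into vesicles by Slc18a3. Adult hippocampus receives most of its acetylcholine from the septum, and its own nicotinic receptors are chiefly of the α7 and α4β2 types.

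The 250 bases before the annotated start are shown for the pair of genes with the largest increases and for the gene that was lower, so that their base composition can be compared. They were read from RefSeq (GRCm38.p6), which held a promoter for 8 of the 10 genes, and run 5′ to 3′ on the gene's strand. Capitals mark the GC box GGGCGG, searched on both strands with overlapping matches counted apart.
Slc10a4, chr5:73006654-73006903, plus strand: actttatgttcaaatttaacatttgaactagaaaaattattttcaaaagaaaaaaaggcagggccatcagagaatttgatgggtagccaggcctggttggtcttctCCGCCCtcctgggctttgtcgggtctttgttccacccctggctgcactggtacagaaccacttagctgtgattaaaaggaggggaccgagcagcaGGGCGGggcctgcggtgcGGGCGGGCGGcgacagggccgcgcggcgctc
Chrna3, chr9:55026563-55026812, minus strand: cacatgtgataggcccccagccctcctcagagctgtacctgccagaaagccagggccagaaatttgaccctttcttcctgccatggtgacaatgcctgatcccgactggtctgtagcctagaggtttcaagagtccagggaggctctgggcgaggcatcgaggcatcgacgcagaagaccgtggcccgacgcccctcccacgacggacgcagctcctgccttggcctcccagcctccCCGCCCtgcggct
Nwd2, chr5:63648853-63649102, plus strand: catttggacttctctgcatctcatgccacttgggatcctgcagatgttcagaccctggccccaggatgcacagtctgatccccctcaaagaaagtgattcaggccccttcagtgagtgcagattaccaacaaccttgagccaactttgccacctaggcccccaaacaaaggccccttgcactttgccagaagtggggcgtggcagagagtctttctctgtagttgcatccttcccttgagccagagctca
The Slc10a4 window held 13 CpG dinucleotides and 4 GC boxes, and the Chrna3 window 13 CpG dinucleotides and 1 GC box. The Nwd2 window held 1 CpG and 0 GC boxes. Over all 32851 promoter windows of this length the median was 6 CpG dinucleotides, and 32.7% held a GC box. The Slc10a4 window, set by the RefSeq start, reaches 21 bases into the gene as GENCODE M21 draws it. Genes whose groups overlapped covered the whole range, from 1 CpG at Slc5a7, through 7 CpG and 1 GC box at the first start of Slc17a6, to 17 CpG and 4 GC boxes at the second of the 2 starts of Chrna5. The E-box CAGCTG, searched on both strands and present in 13.0% of all windows, was found once each in the windows of Chrnb4 and Chat and in none of the 3 shown. These matches describe the letters of the windows only.

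The genes parted into 3 that were higher in the double knockout, 1 that was lower and 6 whose groups overlapped. Slc10a4, Chrna3 and Gpr151 had every KO library above every WT library, and Nwd2 had every KO library below. Of these, 8 of the 10 had enough counts to be tested (Chat and Chrnb4 did not), and a gene near silence in WT could be tested only through its KO level. All 16861 genes with enough counts were tested with edgeR (quasi-likelihood, p adjusted by Benjamini-Hochberg), and at an adjusted p under 0.05 3 of the 8 were called higher and 1 lower. The same test called 5.90% of all tested genes higher and 1.05% lower, and without regard to the test 14.0% lay wholly higher and 11.2% wholly lower in KO. As the genes were picked with this contrast known, nothing is read from these shares.

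**Figure D1:**
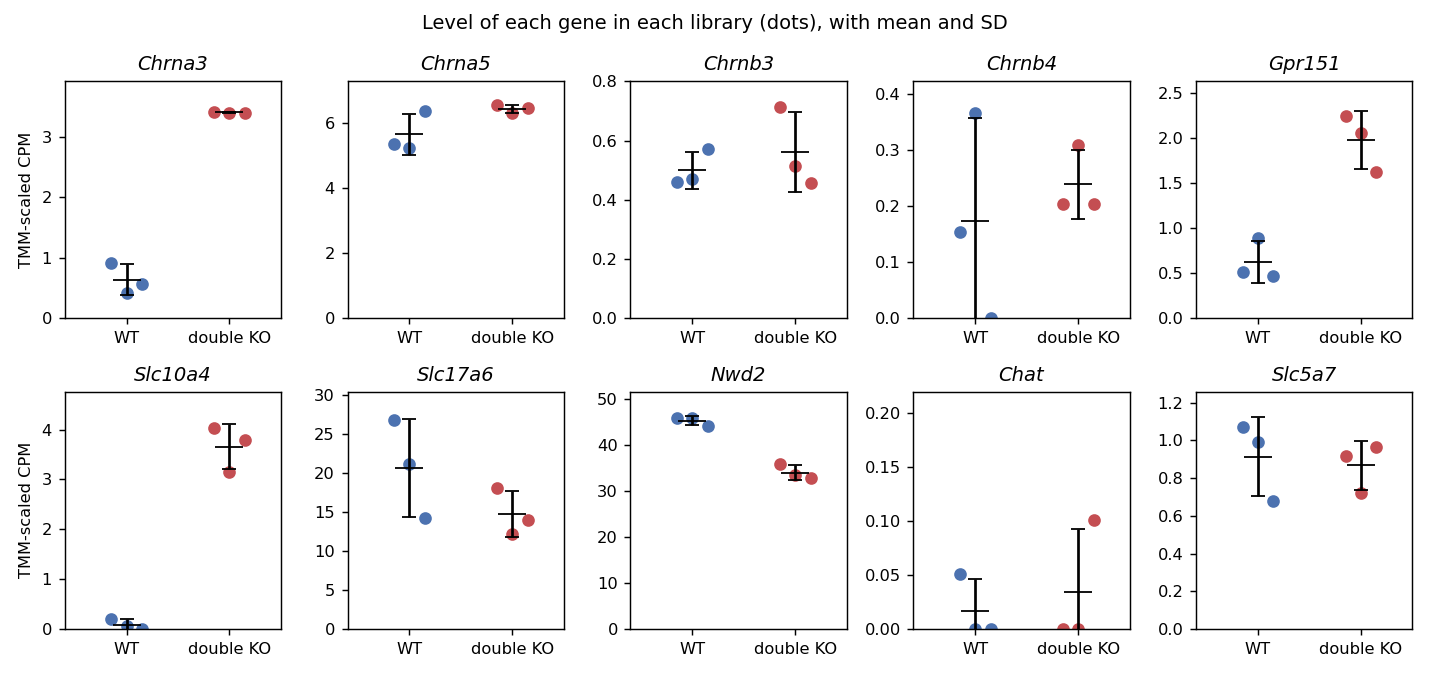
Level of each of the 10 genes in the 3 WT and 3 double-KO libraries, in counts per 1000000 scaled with TMM on a linear axis, dots being libraries and bars the mean with its SD. Slc10a4, Chrna3 and Gpr151 sit wholly higher in KO and Nwd2 wholly lower, while the dots of the other 6 genes overlap between groups.

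Slc10a4 had the largest fold change of the 8 tested genes. It encodes an orphan member of the sodium and bile acid cotransporter family that sits in synaptic vesicles of cholinergic and monoaminergic neurons. The gene (ENSMUSG00000029219, chromosome 5, 73006883 to 73012955, plus strand, GRCm38) drew 4, 1 and 0 reads in WT replicates 1, 2 and 3, and 79, 61 and 75 reads in the KO replicates. In counts per 1000000 (CPM, scaled with TMM) its level was 0.0854 ± 0.106 in WT and 3.66 ± 0.460 in KO (mean ± SD, n = 3 each). The ratio of counts per library size was 43.0 (exact binomial 95% interval 18.2 to 134, which covers counting error only). The fitted log2 fold change was 5.31 (SE 0.420), and because it rests on 5 WT reads it ran from 4.76 to 6.82 over the alternatives, the latter without WT replicate 1. WT libraries were thus at or close to no reads and all KO libraries well above them.

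The vesicular amine transporters, which were not among the 10, did not all move alike. Slc18a3, the vesicular acetylcholine transporter, lies inside Chat on the same strand with no exonic base in common. It had 1, 0 and 0 reads in WT and 17, 21 and 18 in KO. Per library size that is 56.1 times as many (exact binomial 95% interval 9.66 to 2250, counting error only). It was called higher (adjusted p = 9.54e-05), but it could be tested only through its KO level. Its list was also chosen with earlier results of these data known, so the call is a description. It could not be tested when at least 1 CPM in 3 libraries was asked for. Slc18a2, the vesicular monoamine transporter, had 153, 135 and 146 reads in WT and 374, 365 and 411 in KO. It rose by a log2 fold change of 1.39 (SE 0.0985, adjusted p = 4.98e-07), its level being 7.48 ± 0.387 CPM in WT and 19.6 ± 1.11 CPM in KO. The third family member, Slc18a1, had 4 reads in each group. Of 13 relatives of the transporters and of Nwd2 that were listed, 8 could be tested, 1 rose (Slc18a2) and 0 fell, with a median log2 fold change of 0.00 against -0.01 over all tested genes. In bulk RNA more cells that express a gene and more RNA per cell cannot be told apart.

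Among the nicotinic subunits only Chrna3, which encodes α3, the ligand-binding partner of β4, was called. Chrna3 (ENSMUSG00000032303, chromosome 9, 55010111 to 55026562, minus strand) had 18, 8 and 11 reads in WT replicates 1 to 3 and 67, 66 and 67 in KO. Its level was 0.636 ± 0.256 CPM in WT and 3.41 ± 0.00945 CPM in KO, a log2 fold change of 2.40 (SE 0.251, 95% interval 1.86 to 2.95). The KO libraries were nearly equal, and the highest WT library lay far below them.

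Its neighbours in the cluster had overlapping groups. Chrna5, an accessory subunit whose gene ends 2.33 kb from the end of Chrna3 on the opposite strand, had 105, 100 and 122 reads in WT and 128, 122 and 127 in KO. In WT replicate 3 it reached 6.35 CPM, within the KO range of 6.29 to 6.53 CPM, and its log2 fold change was 0.19 (95% interval -0.10 to 0.47). Chrnb4, the β4 subunit, lies 1.59 kb from Chrna3 on its other side and had 3, 7 and 0 reads in WT against 4, 6 and 4 in KO. Its ratio of counts per library size was 1.40 (exact binomial 95% interval 0.579 to 3.53, counting error only). That interval leaves out the spread among libraries, and whether Chrnb4 and Chrna3 differ in fold change was not tested. Chrnb3, the accessory β3 subunit on chromosome 8, had 9, 9 and 11 reads in WT and 14, 10 and 9 in KO (log2 fold change 0.17, 95% interval -0.59 to 0.92). Of the 3 subunit genes in the cluster, only Chrna3 had groups that did not overlap.

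Of the 12 nicotinic subunits outside the 10 genes, 6 could be tested and 0 passed in edgeR or in DESeq2, with 2 at an unadjusted p under 0.05 in edgeR. Their median log2 fold change was 0.16, against -0.01 over all tested genes. The smallest p-values belonged to Chrna1, the muscle α1 subunit (1.85 ± 0.336 to 2.76 ± 0.420 CPM, adjusted p = 0.128), and Chrna7, the homomeric α7 subunit (18.3 ± 1.28 to 21.1 ± 0.138 CPM, adjusted p = 0.194). In both, every KO library lay above every WT library. Chrnb2, named after its values were seen as a partner that α3 can also take, stood at 81.3 ± 2.42 CPM in WT against 77.8 ± 3.00 CPM in KO. Chrna6, next to Chrnb3, had 0 reads in WT and 2, 1 and 1 in KO, too few to test.

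Proteins that escort or restrain nicotinic receptors gave small changes in both directions. Of 13 listed chaperones and Ly6-type prototoxins 12 were tested, 2 rose and 1 fell, with a median log2 fold change of 0.00. Lynx1, a brake on nicotinic currents, rose from 420 ± 37.2 to 519 ± 8.74 CPM (adjusted p = 0.00901), and Ly6e rose from 209 ± 24.8 to 273 ± 20.3 CPM (adjusted p = 0.0101). Lypd1 fell from 44.8 ± 3.35 to 36.2 ± 2.67 CPM (adjusted p = 0.0284). The 2 rises ended without KO replicate 3 (adjusted p = 0.0528 for Lynx1 and 0.0634 for Ly6e), and that of Ly6e also without WT replicate 1 (0.0517) or KO replicate 2 (0.0507). The fall of Lypd1 was no longer called when WT replicate 3 (0.0641), KO replicate 2 (0.0773) or KO replicate 3 (0.176) was dropped. Ric3 and Tmem35a, chaperones that help assemble α7 receptors and are named after their values were seen, measured 102 ± 2.24 and 64.2 ± 3.43 CPM in WT against 95.6 ± 1.71 and 60.0 ± 2.16 CPM in KO and did not pass.

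**Figure D2:**
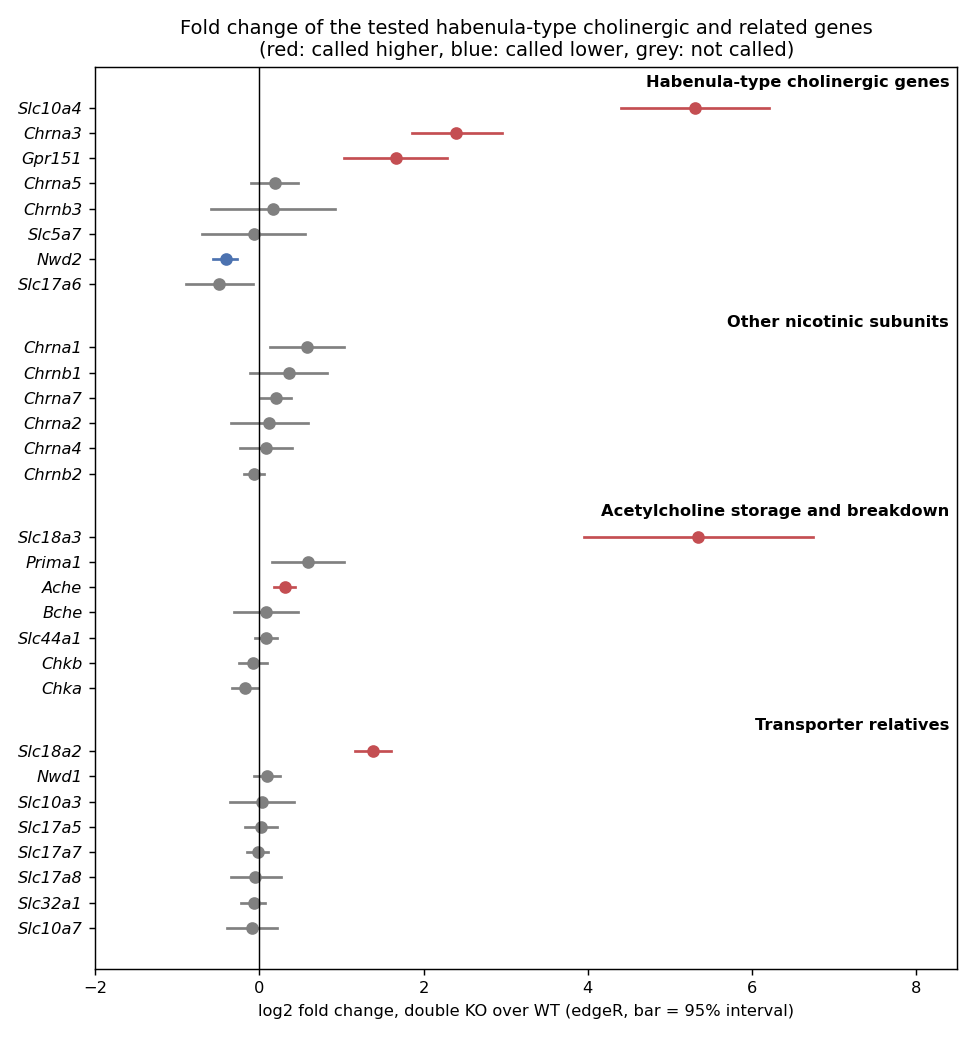
Log2 fold change of double KO over WT with its 95% interval from the edgeR fit, for the 8 tested habenula-type cholinergic genes and for tested genes of 3 related lists. Slc10a4 at 5.31 and Slc18a3 at 5.34 lie apart from the rest, Chrna3 is at 2.40, and no other nicotinic subunit is called.

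Gpr151, an orphan G protein-coupled receptor found at axon terminals of habenular neurons, was also higher in KO. It is on chromosome 18 (ENSMUSG00000042816, 42577881 to 42579652, minus strand). Reads numbered 10, 17 and 9 in WT and 44, 40 and 32 in KO, that is 0.622 ± 0.231 against 1.98 ± 0.319 CPM (log2 fold change 1.66, SE 0.290, 95% interval 1.03 to 2.28). The lowest KO library, replicate 3 at 1.62 CPM, lay above the highest WT library, replicate 2 at 0.888 CPM.

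Nwd2, which encodes a large protein with NACHT and WD repeat domains, was the 1 gene of the 10 with every KO library lower. It is on chromosome 5 (ENSMUSG00000090061, 63649102 to 63810546, plus strand). WT libraries held 898, 877 and 850 reads and KO libraries 702, 649 and 648, or 45.3 ± 0.898 against 34.0 ± 1.55 CPM (log2 fold change -0.41, SE 0.0667). All KO values were close to each other and below all WT values. Of its exonic bases 11.7% are shared with Gm9954, a transcript on the opposite strand that was singled out after its values were seen and that held 499 reads in WT and 375 in KO. Whether the counting used strand is not stated, and without it reads of the pair cannot be told apart over those bases. Its relative Nwd1, also named after its values were seen, stood at 143 ± 13.4 CPM in WT against 153 ± 7.49 CPM in KO and did not pass.

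Slc17a6, the vesicular glutamate transporter VGLUT2 of thalamic, habenular and other subcortical neurons, varied more widely among the WT libraries than its means differed between groups. Its reads were 523, 403 and 273 in WT replicates 1 to 3 and 353, 237 and 275 in KO replicates 1 to 3. Levels were 20.6 ± 6.24 CPM in WT and 14.7 ± 2.97 CPM in KO, and WT replicate 3 at 14.2 CPM fell within the KO range. The log2 fold change of -0.49 (SE 0.188, 95% interval -0.89 to -0.08) did not pass over all genes. It was called lower when WT replicate 3 was left out (-0.70), with a replicate block and with no filter on low counts, and not by DESeq2. Its relatives, named after their values were seen, were Slc17a7, the transporter of hippocampal principal neurons, at 1340 ± 107 CPM in WT and 1320 ± 55.1 CPM in KO, and Slc17a8, the third vesicular glutamate transporter, 4.80 ± 0.385 and 4.65 ± 0.281 CPM.

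For the genes that make acetylcholine and recover choline no difference was detectable at this depth. Chat drew 1, 0 and 0 reads in WT and 0, 0 and 2 in KO, a ratio of 2.00 with an exact binomial 95% interval from 0.104 to 118. Its 3 reads in all cannot bound a change in either direction. Slc5a7, the choline transporter of cholinergic terminals, had 21, 19 and 13 reads in WT and 18, 14 and 19 in KO, 0.913 ± 0.209 against 0.868 ± 0.129 CPM (log2 fold change -0.07, 95% interval -0.70 to 0.56). So the vesicular transporter Slc18a3 was called higher while Chat, the gene around it, stood at 2 reads in KO. Gm2990, a transcript on the opposite strand that overlaps the span of Chat with no exonic base in common, had 0 reads in WT and 12 in KO. It was singled out after its values were seen.

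Of 8 genes for acetylcholine storage, its breakdown and choline handling, 7 were tested, 2 rose (Slc18a3 and Ache) and 0 fell, with a median log2 fold change of 0.08. Ache, the esterase that ends acetylcholine signals, was at 67.4 ± 3.55 CPM in WT and rose to 83.3 ± 2.03 CPM (log2 fold change 0.31, SE 0.0600, adjusted p = 0.00530). Of the 5 muscarinic receptors 5 were tested and 0 passed in edgeR or DESeq2, with 1 at an unadjusted p under 0.05 in edgeR and a median of -0.08. Chrm4 stood at 12.5 ± 1.15 CPM in WT against 15.7 ± 2.16 CPM in KO (adjusted p = 0.120), and Chrm2 8.94 ± 1.86 and 7.37 ± 1.12 CPM (adjusted p = 0.368). Of 9 transcription factors and trophic receptors of cholinergic neurons only 2 could be tested and 0 passed in edgeR or DESeq2, with 1 at an unadjusted p under 0.05 in edgeR and a median of 0.37. These were Ngfr, the p75 neurotrophin receptor (1.83 ± 0.186 to 2.84 ± 0.511 CPM, adjusted p = 0.0870), and Zic4 (3.21 ± 0.209 to 3.45 ± 0.903 CPM, adjusted p = 0.820). Lhx8 and Isl1, factors that specify forebrain cholinergic neurons and are named after their values were seen, had 1 and 2 reads in WT and 2 and 0 in KO.

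None of the other habenula markers tested passed. Of 12 further habenula markers 9 were tested and 0 passed in edgeR or DESeq2, with 2 at an unadjusted p under 0.05 in edgeR and a median log2 fold change of -0.03, against -0.01 over all tested genes. Tac2 and Pou4f1 are named after their values were seen. Tac2, the neurokinin B precursor abundant in medial habenula and also made by hippocampal interneurons, had 68, 67 and 72 reads in WT and 73, 59 and 66 in KO. Pou4f1, the factor that defines medial habenula neurons, had 1, 0 and 0 reads in WT and 1, 3 and 3 in KO. Nhlh2, a basic helix-loop-helix factor, stood at 1.94 ± 0.633 CPM in WT against 3.36 ± 0.402 CPM in KO (adjusted p = 0.0578, and 0.0372 without WT replicate 1), and Lrrc55, a channel subunit, 12.8 ± 2.05 and 10.2 ± 1.60 CPM (adjusted p = 0.198, and 0.0423 without WT replicate 3). The summed level of the 12 markers was 121 to 131 CPM in WT libraries and 125 to 130 CPM in KO libraries. Its largest parts, named after their values were seen, were Etv1 (52.7 CPM in WT, 51.5 CPM in KO) and Calb2 (32.8 and 35.8 CPM). Calb2 is also on the interneuron list. The sum therefore says little about the markers at low levels. Nhlh2 lay wholly higher in KO, and the part of habenular RNA in the values of the 10 genes was not tested.

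Markers of other brain structures were counted in the same way. Of 12 thalamus markers 11 were tested, with a median of 0.00, and 1 rose and 0 fell, the rise being in Prkcd, a protein kinase C (34.9 ± 3.17 to 46.3 ± 1.51 CPM, adjusted p = 0.00380). The thalamic factor Gbx2 had 0 reads in every library, and the summed level ran from 155 to 171 CPM in WT and from 171 to 182 CPM in KO. Among 10 hypothalamic and mammillary markers, Foxb1 and Sim1 had 0 reads in every library and 1 was tested, Trh, which did not pass in edgeR (adjusted p = 0.872) or DESeq2 and had no unadjusted p under 0.05. Their summed level was 0.729 to 0.993 CPM in WT and 0.979 to 1.43 CPM in KO. Of 8 striatum markers 7 were tested, with a median log2 fold change of 0.40, and 2 rose, Rgs9 (13.1 ± 0.408 to 18.4 ± 0.915 CPM, adjusted p = 0.00320) and Ppp1r1b (33.8 ± 4.92 to 44.7 ± 3.48 CPM, adjusted p = 0.0211). Ppp1r1b lost its call without WT replicate 1 or 2 or KO replicate 2 or 3 (adjusted p from 0.0682 to 0.121). The summed striatal level was 58.4 to 65.5 CPM in WT and 74.3 to 81.7 CPM in KO, and its part in the values of the 10 genes was not tested.

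Choroid plexus markers varied widely between libraries. Of 8 choroid plexus and ependyma markers 7 were tested, with a median log2 fold change of 0.66, and 1 rose, Kl (22.0 ± 1.37 to 58.9 ± 3.45 CPM, adjusted p = 2.77e-08), which hippocampal neurons express as well. None was at 0 over all libraries, and the summed level was 38.0 to 55.2 CPM in WT and 70.1 to 132 CPM in KO. Kl alone gave 20.4 to 23.0 CPM of this in WT and 55.1 to 61.8 CPM in KO. The sums are therefore not a measure of choroid plexus RNA alone. Ttr, named after its values were seen as the transcript that defines choroid plexus epithelium, had 374, 114 and 139 reads in WT replicates 1 to 3 and 1155, 31 and 1103 in KO replicates 1 to 3. KO replicate 2, with the fewest Ttr reads of all 6 libraries, held 61 reads of Slc10a4, 66 of Chrna3 and 40 of Gpr151. Other listed markers, named after their values were seen, did not all follow Ttr in that library. Otx2 stood at 0.618 CPM, above every WT library, and Aqp1 at 0.206 CPM, below every WT library. Without KO replicate 2 the log2 fold changes of Slc10a4, Chrna3 and Gpr151 were 5.40, 2.41 and 1.63. That fit keeps the KO libraries with the most Ttr reads, so it cannot separate out choroid plexus RNA. The part of choroid plexus RNA in these values was not tested.

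Markers of the labelled tissue were abundant. All 10 markers of hippocampal principal neurons were tested, 3 rose (Spink8, C1ql2 and Pou3f1) and 1 fell (Neurod6), with a median of -0.04 and a summed level of 6710 to 7130 CPM in WT and 6300 to 6950 CPM in KO. Pou3f1 lost its call with a replicate block (adjusted p = 0.0611) and without any 1 library other than KO replicate 1 (0.0512 to 0.239). Of 5 subiculum markers 5 were tested and 0 passed in edgeR or DESeq2, with 2 at an unadjusted p under 0.05 in edgeR and a median of 0.37. The closest were Ly6g6e (2.47 ± 1.05 to 4.31 ± 0.295 CPM, adjusted p = 0.0588) and Tpbg (7.35 ± 0.812 to 9.48 ± 1.15 CPM, adjusted p = 0.126). All 12 interneuron markers were tested and 0 passed in edgeR or DESeq2, with 3 at an unadjusted p under 0.05 in edgeR and a median of -0.06. The closest were Nos1 (177 ± 8.45 to 197 ± 12.1 CPM, adjusted p = 0.196) and Npy (38.4 ± 1.63 to 33.9 ± 2.89 CPM, adjusted p = 0.210). Of the targeted genes, Kdm1a fell from 73.7 ± 3.95 to 38.6 ± 1.29 CPM in the libraries labelled ifKO (adjusted p = 4.32e-07). Kdm5c measured 79.5 ± 2.97 and 70.6 ± 4.67 CPM and did not pass (adjusted p = 0.143), while whole-gene counts do not isolate the deleted exons. Total counts were 19309576 to 19700249 per library.

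**Figure D3:**
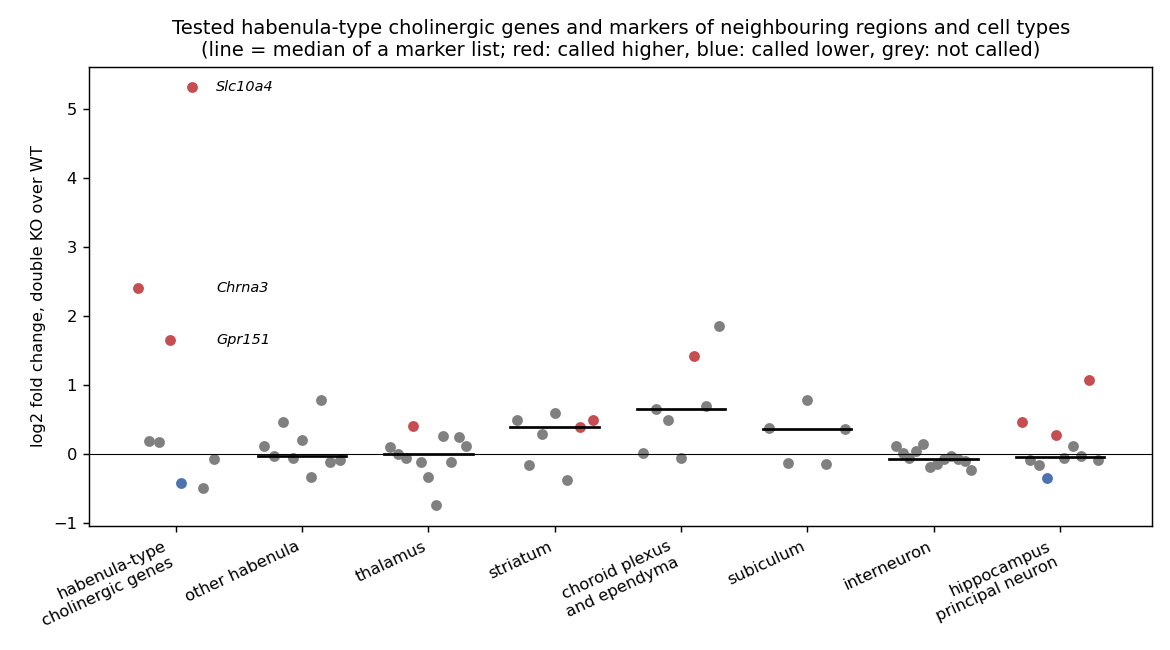
Log2 fold change of double KO over WT for each tested habenula-type cholinergic gene and each tested marker of 7 regions or cell types, with the median of each marker list as a line. Slc10a4, Chrna3 and Gpr151 stand between 1.66 and 5.31, and the 8 tested habenula-type cholinergic genes have a median of 0.18, which is not drawn. The 9 tested habenula markers have a median of -0.03, with Nhlh2 at 0.78, and none is called.

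Per length of annotated exon, the order of the genes changed between groups. In reads per 1000 exonic bases and 1000000 counts (RPKM), WT hippocampus held 4.34 ± 0.0861 of Nwd2 and 3.82 ± 1.15 of Slc17a6, which did not differ beyond their spread, and then 1.80 ± 0.197 of Chrna5. Gpr151 followed at 0.351 ± 0.131, ahead of Slc5a7 at 0.162 ± 0.0370 and Chrna3 at 0.121 ± 0.0486, the last 2 overlapping. Chrnb3, Chrnb4 and Slc10a4 lay at 0.0786 ± 0.00983, 0.0464 ± 0.0493 and 0.0405 ± 0.0503 RPKM, the last 2 not separable, and Chat at 0.00361 ± 0.00626. In KO the order began again with Nwd2 (3.26 ± 0.148), Slc17a6 (2.73 ± 0.55) and Chrna5 (2.05 ± 0.0389). Slc10a4, next to last in WT, came after Chrna5 in KO at 1.74 ± 0.218 RPKM, ahead of Gpr151 at 1.12 ± 0.180 and Chrna3 at 0.647 ± 0.00180. Slc5a7, Chrnb3, Chrnb4 and Chat closed the KO order at 0.154 ± 0.0228, 0.0882 ± 0.0212, 0.0641 ± 0.0164 and 0.00719 ± 0.0125 RPKM.

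Within 3 places of the 10 genes on either side lie 48 protein-coding genes, of which 33 were tested. Against 5.90% higher and 1.05% lower over all tested genes, 4 of these neighbours were called higher and 0 lower. They were Slc18a3 in the body of Chat, Adrb3, a β-adrenergic receptor 118 kb from Chrnb3 (1.02 to 2.35 CPM, log2 fold change 1.20, SE 0.237, adjusted p = 0.00566), Fryl, 7.03 kb beyond Slc10a4 (70.7 to 83.9 CPM, adjusted p = 0.0456), and Rell1, 98.4 kb from Nwd2 (10.6 to 14.3 CPM, adjusted p = 0.0479). Fryl lost its call with a replicate block (adjusted p = 0.0577) and with any 1 library left out other than WT replicate 2 (0.0745 to 0.192). Rell1 lost its call without WT replicate 2 or 3 or KO replicate 1 or 3 (0.108 to 0.176). Of neighbours named after their values were seen, Psma4, beside the nicotinic cluster, had 48.3 CPM in WT against 47.5 CPM in KO, and Slain2, on the other side of Slc10a4 from Fryl, 23.3 and 24.7 CPM. The tested neighbours of Chrna3 and Slc10a4 had log2 fold changes from -0.11 to 0.61, the latter in Tec, which did not pass.

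**Figure D4:**
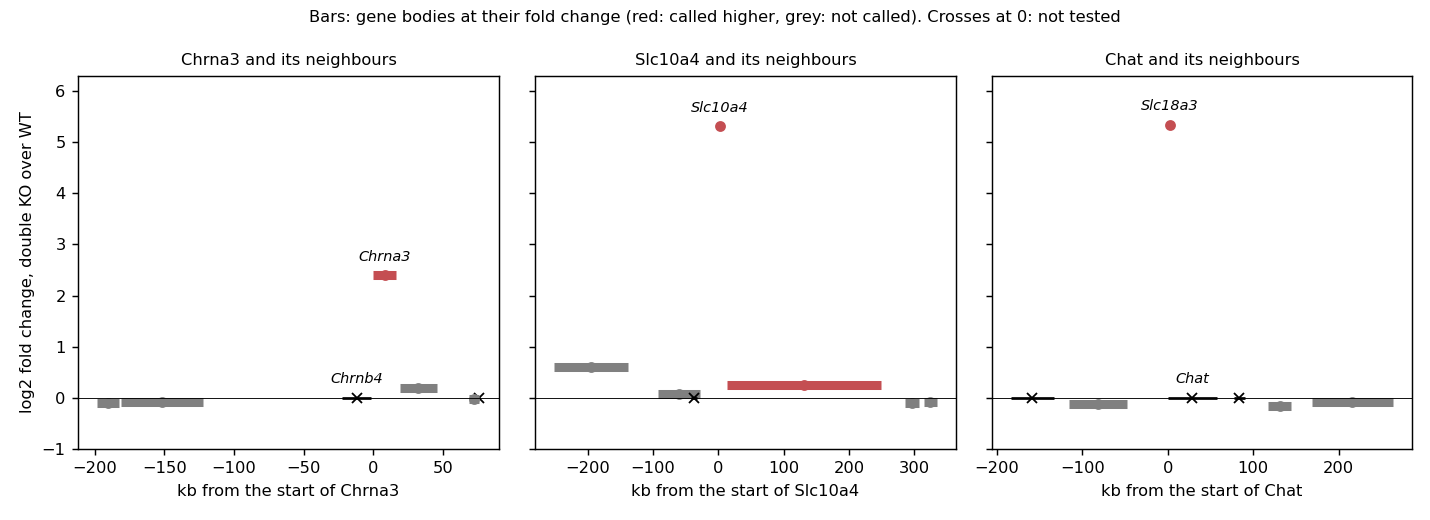
Gene bodies around Chrna3, Slc10a4 and Chat by distance in kb from the start of each, at the height of their log2 fold change of double KO over WT, with untested genes as crosses at 0. Chrna3 at 2.40, Slc10a4 at 5.31 and Slc18a3 at 5.34 lie above their tested neighbours, which reach at most 0.61.

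Across the 6 libraries the genes most like Slc10a4, the member of the 10 with the smallest p, in log2 CPM were Tmem132e (Pearson r 0.9986), Tcfl5 (0.9979) and Hpgd (0.9977). Levels were 10.5 ± 0.909 CPM in WT and 17.0 ± 0.507 CPM in KO for Tmem132e, 0.119 ± 0.164 and 10.9 ± 0.673 CPM for Tcfl5, and 4.47 ± 0.161 and 5.30 ± 0.0172 CPM for Hpgd. Among the 10 genes themselves r with Slc10a4 was 0.985 for Chrna3, 0.917 for Gpr151 and -0.943 for Nwd2, and 0.0512 for Slc5a7. With 6 points in 2 groups these values mostly restate the group difference and are given as a description.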

How the data were processed

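The authors deposited 1 table of raw read counts for the 6 libraries over 48795 Ensembl identifiers. Per the submitters' processing notes, the tools were cutadapt 1.18, HISAT2 and HTSeq 0.11.1, with build GRCm38 (mm10). The strand setting and annotation release were not given in the sources used here. GENCODE M21 gave symbols to all but 446 identifiers. Low genes were removed by filterByExpr (count minimum 10, total minimum 15) and the rest scaled with TMM. Groups were compared in edgeR 4.0.16 under R 4.3.3 by its quasi-likelihood test, with no covariate, and p-values adjusted by Benjamini-Hochberg. Adjusted p-values are from this fit unless DESeq2 1.42.0 is named. An SE is the log2 fold change over the square root of F. The fit was also run on counts simulated from the dispersions that edgeR estimated here, which cannot show whether the model suits these data. The 10 genes and all lists were chosen with earlier results of these data known.

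Named were the 10 genes and, in each list, up to 4 called genes, taken by adjusted p, or the 2 genes of smallest p where none was called, and for marker lists the defining markers at 0. All neighbours past the threshold and the 3 nearest patterns of the gene with the smallest p were named, as were Kdm1a and Kdm5c, and genes outside this rule are marked as such. Some genes of the lists are not reported here. Alternatives were DESeq2, RLE scaling, scaling by library size alone, no filter, a filter of 1 CPM in 3 libraries, a replicate block, and each library left out in turn.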

Additional observations from a re-analysis of the deposited data

How the results depend on the processing

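Over the 12 alternatives the log2 fold changes of Slc10a4, Chrna3, Gpr151 and Nwd2 ran from 4.76 to 6.82, 2.18 to 2.76, 1.49 to 2.00 and -0.45 to -0.38. These genes were chosen from this contrast, so that their calls under other settings are no independent support. Slc17a6 was called lower with no filter on low counts (-0.49), with a replicate block (-0.47) and without WT replicate 3, so that 2 of the 10 genes were lower there, and leaving out 1 library gave -0.70 to -0.26 and 1 to 2 genes. With no filter, Chat and Chrnb4 had log2 fold changes of 0.77 and 0.45 and were not called. The signs of Chrnb3 (-0.04 to 0.30) and Slc5a7 (-0.25 to 0.06) were not stable. The cause of these shifts was not tested.

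The number of all genes called lower was 279 with no filter and 48 to 323 with 1 library left out (48 without KO replicate 3, 67 without KO replicate 2, 102 without KO replicate 1, 323 without WT replicate 3). With no filter 1 cholinergic regulator, 1 further habenula marker, 1 subiculum marker and 2 choroid plexus markers were called higher, and 2 chaperones or prototoxins lower. With a replicate block 1 subiculum marker was higher and 2 chaperones or prototoxins were lower, as with DESeq2. Library size alone called 1 habenula marker higher. At 1 CPM in 3 libraries 1 gene of acetylcholine storage and breakdown was higher, as Slc18a3 was no longer tested. Leaving out 1 library gave 0 to 2 chaperones or prototoxins higher and 0 to 1 lower, 0 to 1 habenula markers higher and 0 to 1 lower, 1 to 2 choroid plexus markers higher, 1 to 2 striatum markers higher and 0 to 1 subiculum markers higher. Same-numbered libraries did not deviate together (r of 0.00465, -0.00921 and -0.0240 for the 3 pairs), and pairs of unlike number had r from -0.124 to 0.128. With 3 libraries per group these values cannot settle whether a number marks a shared litter or batch. Genes with under about 10 reads per library are limited by depth.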
